A study of Mus musculus with 2 samples.

Results

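The 8 genes described here encode the classes of antibody and the chain that joins antibodies together. They are 7 heavy chain constant region genes, namely Igha, Ighm, Ighd, Ighg1, Ighg2b, Ighg2c and Ighg3, and Jchain, and they were picked by name from the 26981 genes counted in the 2 libraries. Igha, the heavy chain of IgA, stands foremost, since IgA is the antibody class most closely tied to gut microbes. Ighe, the heavy chain of IgE, and the light chain genes Igkc, Iglc1, Iglc2 and Iglc3 served for comparison.

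The cells came from visceral adipose tissue (VAT) of wildtype C57BL/6 mice, 15 weeks old and kept under specific pathogen-free conditions. By the labels the tissue was digested for 90 min (the methods describe a shorter collagenase digestion of adipose tissue), and CD45+ cells were pulled out with magnetic beads. In the NW group the mice drank normal water, and in the ABX group they received antibiotics, a mixture of ampicillin, vancomycin, streptomycin and colistin in the drinking water according to the methods. Each group gave 1 library, the number of mice behind it is not stated in the sources used here, and so no spread between mice can be estimated and no test between groups was made. All intervals below are exact 95% intervals for counting error only, and the limit given for a count of 0 is a fixed one of 3 counts, which lies below the upper end of such an interval.

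The BD Rhapsody whole transcriptome assay counts unique molecular identifiers (UMIs), that is, distinct captured mRNA molecules, per gene and cell barcode. Cells with at least 500 gene UMIs, at least 200 genes and at most 25% mitochondrial UMIs were kept, which left 12474 cells in NW (median of 5092 UMIs) and 12724 in ABX (median of 3845.5 UMIs). Although labelled CD45+, they included 287 and 461 endothelial cell-like and 10 and 90 fibroblast-like cells. In all, 371 cell barcodes occurred in both libraries, 196 of them among kept cells and 0 among plasma cell-like cells of both. To keep the members from choosing the cells they were measured in, clusters were computed without the 305 immunoglobulin genes, and a cluster was named only from marker genes that hold no member.

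B cells make antibodies by joining a variable region to a heavy chain constant region. A naive B cell carries IgM and IgD, made from the same transcript by alternative splicing. After stimulation the heavy chain locus can be cut and rejoined so that the variable region is placed next to a downstream constant gene, and the cell switches to IgG, IgE or IgA. Plasma cells are the secreting end stage of this lineage and use a single heavy chain. The J chain links IgM into pentamers and IgA into dimers, which the polymeric immunoglobulin receptor can then carry across mucosal epithelia. Adipose tissue of the abdomen also holds B-1 cells, a lineage that secretes natural IgM without prior immunization.

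In GENCODE release M21 for GRCm38, the 7 heavy chain genes lie on the minus strand of chromosome 12, in the order of transcription Ighm (chr12:113418558-113422730), Ighd (chr12:113406604-113416324), Ighg3 (chr12:113356224-113361232), Ighg1 (chr12:113325240-113330523), Ighg2b (chr12:113302965-113307933), Ighg2c (chr12:113285325-113288932) and Igha (chr12:113254830-113260236). Jchain lies on chromosome 5 (chr5:88519809-88527891), also on the minus strand. Coding sequences of the secreted forms shared 85.6% of aligned bases between Ighg2b and Ighg2c, 73.5% to 75.6% between the other pairs of IgG genes, and 41.1% to 47.2% between genes of different classes. UMIs of the 4 IgG genes can therefore be misassigned among each other, and counts of a gene do not separate its secreted from its membrane form.

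The 3′ ends of the coding sequences are shown because they hold the part of an antibody that binds J chain. In the lines below, the last 12 bases shared by the secreted and the membrane form are in lower case, and the coding bases that only the secreted form has, with the stop codon, are in capitals. All are exonic coding sequence, read 5′ to 3′ on the minus strand of GRCm38 from the GENCODE transcripts.
Ighm, chr12:113420867-113420940: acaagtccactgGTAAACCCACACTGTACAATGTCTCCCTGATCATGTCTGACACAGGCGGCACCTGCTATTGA
Igha, chr12:113258768-113258841: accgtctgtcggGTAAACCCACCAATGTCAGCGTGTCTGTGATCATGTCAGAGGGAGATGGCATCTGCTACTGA
Ighg1, chr12:113328976-113328995: cccactctcctgGTAAATGA
Ighg2b, chr12:113306389-113306408: cccggtctccggGTAAATGA
Ighg2c, chr12:113287389-113287408: cccggtctctggGTAAATGA
Ighg3, chr12:113359665-113359684: ctcgctcccctgGTAAATGA
Ighm and Igha each have 59 such bases before the stop codon, which encode the tailpiece, and in both the codon before the last is TGC, for cysteine, the residue that binds J chain and other heavy chains. The 4 IgG genes have 5 such bases and GGT, for glycine, at that codon. The capitals of IgG are too short for a tailpiece, and Jchain was nevertheless counted in the IgG plasma cells described below.

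The plasma cell-like cluster held 161 NW cells, 1.29% of the library (1.1% to 1.5%), and 255 ABX cells, 2.0% (1.77% to 2.26%). All 12 plasma cell markers were raised in it, and Xbp1, the transcription factor of the secretory program, was counted in 100% of them in NW and 98.4% in ABX. Macrophage markers, 10 in the list, summed to a median of 15.4 UMIs per 10000 in these NW cells and 11.5 in these ABX cells, against 115 and 24.1 over all cells, and ranged over single plasma cell-like cells from 4.37 to 111 and from 2.0 to 305. B cell markers, 11 in the list, summed to a median of 7.89 in these NW cells and 9.99 in these ABX cells, against 108 and 107 in B cell-like cells. They ranged up to 40.3 and 60.9 in single plasma cell-like cells. The part of these UMIs of either list in the results below was not tested. Immunoglobulin genes made up a median of 46.7% of the UMIs of a plasma cell-like cell in NW and 42.9% in ABX. The plasma cells were deep, with a median of 13684 UMIs in NW and 11460 in ABX.

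VAT plasma cells were almost all IgM cells under both conditions. The dominant isotype of a cell was the heavy chain gene with at least 50% of its heavy chain UMIs, given at least 10 of them. Ighm, the heavy chain of IgM, was dominant in 154 of 161 NW cells, 95.7% (91.2% to 98.2%), and in 245 of 255 ABX cells, 96.1% (92.9% to 98.1%). Igha was dominant in 2 NW cells, 1.24% (0.151% to 4.42%), and in 1 ABX cell, 0.392% (0.00993% to 2.17%). These intervals overlap widely, and at this number of cells the shares of IgA cells could not be told apart.

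An IgG gene dominated 3 cells of NW, 1.86% (0.386% to 5.35%), and 7 of ABX, 2.75% (1.11% to 5.57%). The NW cells were 1 each of Ighg1, Ighg2c and Ighg3. In ABX there were 2 cells of Ighg1, 2 of Ighg2b and 3 of Ighg2c, the gene that C57BL/6 mice carry in place of Ighg2a. Ighd and Ighe were dominant in 0 plasma cell-like cells of either library, which allows a share of up to 1.86% in NW and 1.18% in ABX at 3 counts (exact intervals reach 2.27% and 1.44%). All switched cells together made up 3.11% (1.02% to 7.10%) of NW and 3.14% (1.36% to 6.09%) of ABX plasma cells. The remaining 2 cells of each library had only 2 to 6 heavy chain UMIs, and 1 of them, in NW, had 1803 Igkc UMIs.

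**Figure D1:**
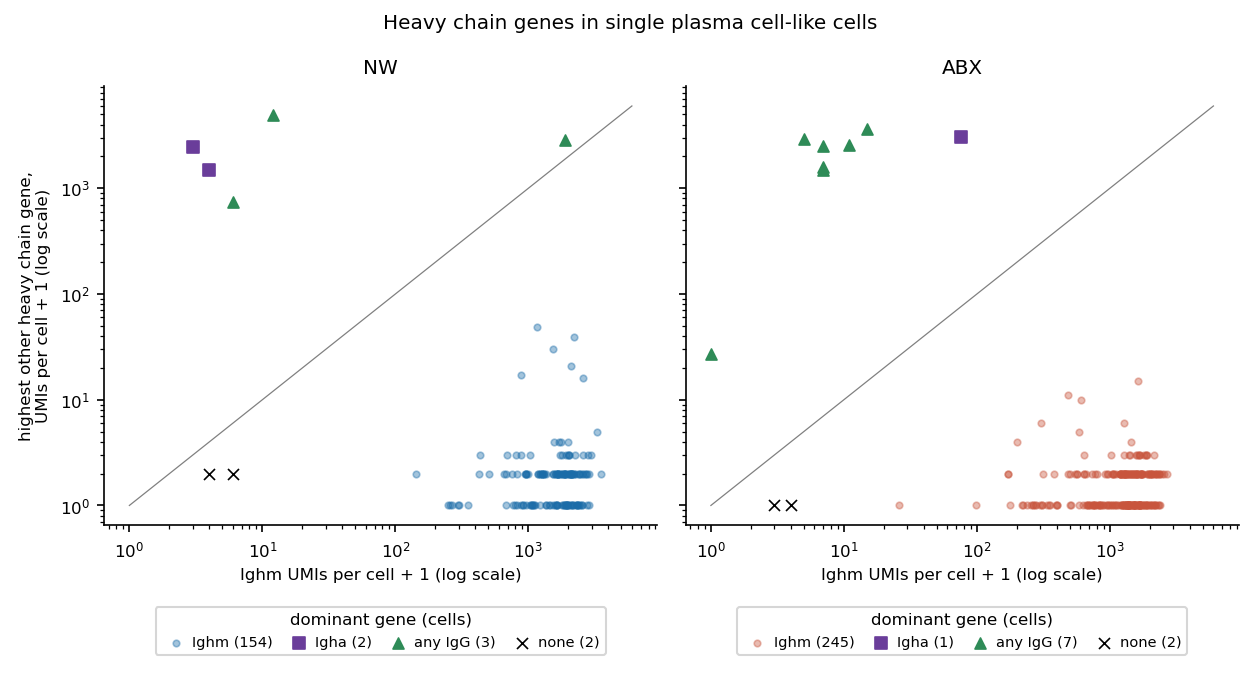
UMIs of Ighm (x axis, plus 1, log scale) against those of the highest other heavy chain gene (y axis, plus 1, log scale) in each plasma cell-like cell, by library, with the line of equal counts. The Ighm cells lie far below the line, the Igha and IgG cells far above it, and 1 NW cell with 1900 Ighm and 2842 Ighg1 UMIs lies near it.

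The isotype of a cell was nearly exclusive. The dominant gene held a median of 99.9% of heavy chain UMIs in NW and 100% in ABX, and at least 99% in 153 of 159 NW cells and 245 of 253 ABX cells. The lowest share in ABX was 97.6%, in the Igha cell. In NW it was 59.8%, in the Ighg1 cell, which also had 4261 Igkc and 2054 lambda UMIs and was the only plasma cell-like cell whose dominant gene held less than 80% of heavy chain UMIs. That barcode was not among the highest 6% of doublet scores (Scrublet) in its library.

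Igha transcripts came from very few cells. In NW, the 2 Igha cells had 2443 and 1492 Igha UMIs with only 2 and 3 of Ighm, and in ABX the single Igha cell had 3053 with 75 of Ighm. All 3 used the kappa light chain, with 5158, 2288 and 5173 Igkc UMIs. Every other plasma cell-like cell had at most 2 Igha UMIs, with a median of 0. Accordingly, 1 cell held 48.9% of all Igha UMIs of the NW library and 1 cell held 88.3% of those of ABX.

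Ighm, in contrast, was spread over all plasma cells. It ranged from 2 to 3501 UMIs per cell in NW, with a median of 1677, and from 0 to 2702 in ABX, with a median of 1331. Relative to all UMIs of the cell the medians were 1233 per 10000 in NW and 1105 in ABX, and the ranges between the quartiles overlapped, from 959 to 1449 and from 852 to 1333. The cell with the most Ighm held 1.08% of the gene's UMIs in NW and 0.660% in ABX.

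The 10 IgG cells spanned a wide range. The Ighg3 cell of NW had 4943 Ighg3 UMIs and a lambda light chain, with 5554 lambda and 28 Igkc UMIs. It also had 66 UMIs of Ighg2c. The Ighg2b cells of ABX had 2584 and 2510 Ighg2b UMIs beside 19 and 15 of Ighg2c. The Ighg1 cells of ABX had 3636 and 1599 Ighg1 UMIs, and the Ighg2c cells of ABX had 2901, 1496 and 26 Ighg2c UMIs, the last in a cell of 862 UMIs with 3 of the 12 plasma cell markers. In NW the Ighg2c cell had 743 UMIs of that gene and 4 of the 12 markers, and it was the single switched plasma cell among the highest doublet scores. Light chain use of the Ighm cells was mostly kappa. Lambda dominated in 6 of 154 NW cells, 3.90% (1.44% to 8.29%), and in 16 of 245 ABX cells, 6.53% (3.78% to 10.4%).

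Jchain was abundant in most plasma cells, whatever their isotype. It was counted in 161 of 161 NW cells, with 1 to 1258 UMIs and a median of 549, and in all but 2 ABX cells, with up to 1794 UMIs and a median of 349. The highest count of all, 1794, was in the Igha cell of ABX. The Ighm cells with at least 100 Jchain UMIs numbered 143 of 154 in NW and 217 of 245 in ABX, and those with fewer than 10 numbered 1 and 7. An ABX cell of the Ighm class had 0 Jchain UMIs.

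Per UMI, Jchain was highest in the Igha cells. Summed over cells, it reached 584 per 10000 UMIs (557 to 613) in the 2 Igha cells of NW, against 402 (399 to 404) in the 154 Ighm cells and 352 (336 to 369) in the 3 IgG cells. In ABX it reached 944 (901 to 989) in the Igha cell, 335 (333 to 337) in the 245 Ighm cells and 260 (250 to 270) in the 7 IgG cells. The Igha cells nonetheless lay within the range of single Ighm cells, which ran up to 805 in NW and 988 in ABX. Set against heavy chain UMIs, the Igha cells had 48.9, 30.6 and 57.3 Jchain UMIs per 100, the Ighm cells a median of 34.2 in NW and 28.6 in ABX, and the IgG cells a median of 13.1 and 18.0. With immunoglobulin genes left out of the total, the IgG cells of NW stood above the Ighm cells, at 801 against 715 per 10000, so their order depends on the scale.

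**Figure D2:**
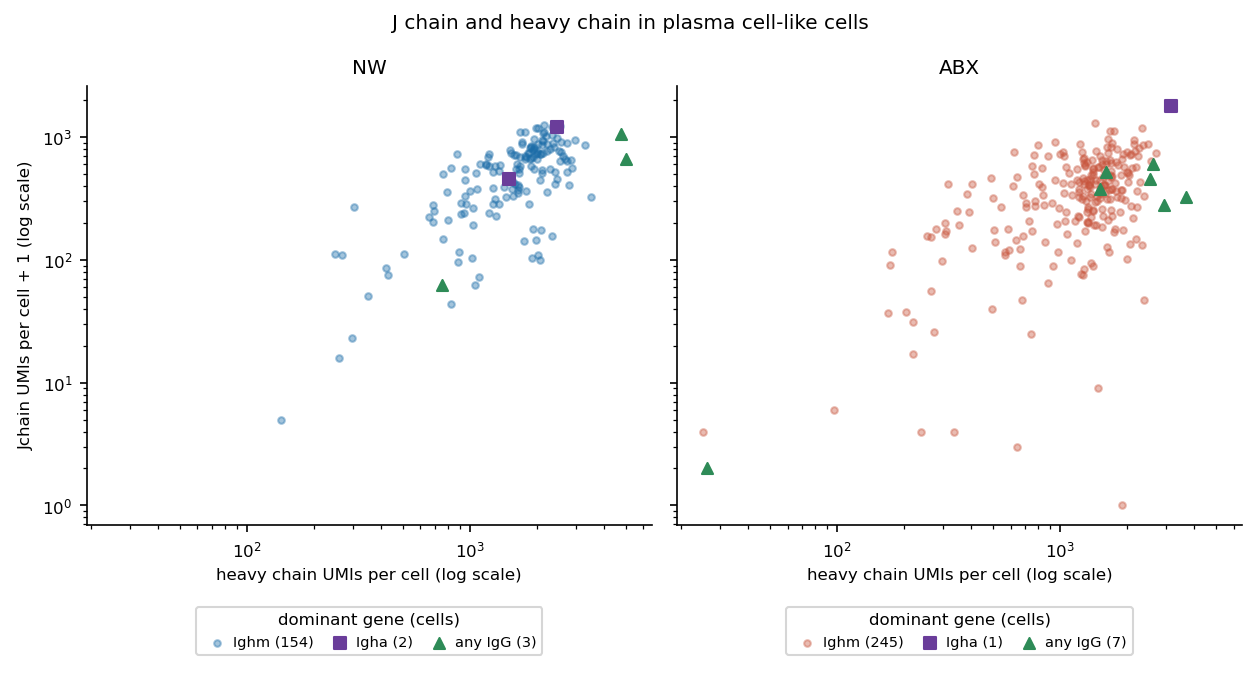
Jchain UMIs (y axis, plus 1, log scale) against all heavy chain UMIs (x axis, log scale) in each plasma cell-like cell with a dominant isotype, by library. The 2 Igha cells of NW lie among the Ighm cells, that of ABX lies above all other cells with 1794 Jchain UMIs, and most IgG cells lie at the right with fewer Jchain UMIs for their heavy chain UMIs.

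Within the Ighm cells, Jchain rose with Ighm from cell to cell. Spearman's rho was 0.609 over 154 NW cells and 0.436 over 245 ABX cells, and 0.377 and 0.208 when both were taken per 10000 UMIs of the cell. Cells of a library share its depth and its free RNA, so these are descriptions of the libraries. Genes whose level over the 20 combinations of named class and library was most like that of Igha were Clec2g (Pearson's r = 0.919 of log2 values), Herpud1 (0.911), Mfsd4a (0.906), Bhlha15 (0.906), Prg2 (0.902), Sec11c (0.887), Edem1 (0.884), Eaf2 (0.883), Gorasp2 (0.876) and Serp1 (0.875). Bhlha15 encodes a transcription factor of secretory cells, and Herpud1, Sec11c, Edem1 and Serp1 act in the endoplasmic reticulum. Igha stood at 18.3 and 10.5 per 10000 in plasma cell-like cells, where it led in 2 and 1 cells, and at 0.505 and 0.171 in B cell-like cells. Any gene high in plasma cells alone therefore ranks high by this measure, and none is read as tied to Igha. For Jchain the highest were Bhlha15 (0.981), Derl3 (0.963) and Prg2 (0.951).

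The Igha cells were too few for a profile of their own. The genes below were ranked by the smaller of their log2 ratios in NW and ABX. Their shared direction in both libraries therefore follows from the choice, and none is read as a trait of Igha cells. Ccr10, a chemokine receptor that guides IgA plasma cells to mucosal tissue, had 7 UMIs in the 2 Igha cells of NW and 3 in that of ABX, against 32 and 33 UMIs in all other plasma cells with an isotype. Next in that order were Gm4316 (2 and 2 UMIs against 16 and 32), Dusp4 (5 and 2 against 33 and 43), Ncapg2 (7 and 3 against 60 and 72) and Bcas3 (3 and 1 against 20 and 34). On the lower side, the Igha cells had 0 UMIs of Lgr5, of which the other cells had 610 and 484, and 0 of Hspb1 (406 and 734), Serpina3g (377 and 531) and Chst1 (429 and 418), and of Npc2 they had 1 and 0 (577 and 865).

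Grouping all switched plasma cells, a comparison chosen after the values were seen, gave the values of 2 receptors over more cells. The Igha cells are among them and held 7 of the 9 Ccr10 UMIs of switched cells in NW and 3 of the 12 in ABX, so that Ccr10 is not a separate observation here. Ccr10 was detected in 3 of the 5 switched cells in NW and in 2 of the 8 in ABX, against 13.6% (8.64% to 20.1%) and 7.35% (4.41% to 11.4%) of Ighm cells. Among B cell-like cells it was detected in 0 of 345 and 0 of 935, which allows shares of up to 0.870% and 0.321% at 3 counts (exact intervals reach 1.06% and 0.394%). Il5ra, the receptor for interleukin 5 and a marker of B-1 cells, was found the other way round, in 60.4% (52.2% to 68.2%) and 51.8% (45.4% to 58.2%) of Ighm cells but in 0 of 5 and 1 of 8 switched cells. In B cell-like cells Il5ra was counted in 21.7% and 18.7%. With 5 and 8 switched cells, these differences rest on few cells.

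Traces of the other isotypes inside Ighm plasma cells were small, and Ighg3 was the highest of them in NW and level with Ighd in ABX, where Ighd stood at 0.181 per 10000 (0.134 to 0.237). Igha had 26 UMIs in the 154 NW cells, 0.125 per 10000 (0.0818 to 0.183), close to the 0.107 (0.0999 to 0.115) of cells outside the B lineage, and 30 UMIs in the 245 ABX cells, 0.106 (0.0717 to 0.152) against 0.0556 (0.0494 to 0.0623). Ighg3 had 1.02 per 10000 (0.884 to 1.16) in NW Ighm cells against 0.321 (0.308 to 0.335) outside, and 0.216 (0.165 to 0.278) in ABX against 0.0685 (0.0616 to 0.0760). Of the Ighm cells, 74 of 154 in NW and 40 of 245 in ABX had it, with at most 38 and 10 UMIs. Thinned to 1000 UMIs per cell, the share of cells with an Ighg3 UMI was 7.21% against 3.40% outside in NW and 2.39% against 0.715% in ABX. Ighg2c stood at 0.159 (0.116 to 0.213) in ABX Ighm cells against 0.0806 (0.0731 to 0.0886) outside. In NW, 48 of the 50 Ighg2b UMIs of Ighm plasma cells lay in 1 cell.

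B cell-like cells were mostly unswitched. This cluster held 345 NW cells, 2.77% (2.49% to 3.07%), and 935 cells of ABX, 7.35% (6.90% to 7.82%), with all 11 B cell markers raised and Cd79a, a part of the B cell receptor, found in 97.7% and 98.3% of them. Of the cells with at least 5 heavy chain UMIs, Ighm was the most frequent heavy chain gene in 309 of 340 in NW, 90.9% (87.3% to 93.7%), and in 844 of 915 in ABX, 92.2% (90.3% to 93.9%). Ighd led in 28 NW cells, 8.24% (5.54% to 11.7%), and 61 ABX cells, 6.67% (5.14% to 8.48%). Class-switched cells numbered 3 in NW, 0.882% (0.182% to 2.56%), and 10 in ABX, 1.09% (0.525% to 2.0%), so their shares could not be told apart at this number of cells.

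The switched B cells again included few of Igha. Of the 3 NW cells, 2 were led by Igha, with 37 and 18 Igha UMIs, and 1 by Ighg3, with 64. In ABX, 1 cell was led by Igha, with 20 UMIs, 5 by Ighg1, with 7 to 30, 3 by Ighg2b, with 12 to 21, and 1 by Ighg3, with 30. All 13 cells had 6 to 11 of the 11 B cell markers. The NW cell with 37 Igha UMIs also had 8 Jchain, 63 lambda and 6 Igkc UMIs and 5 of the 12 plasma cell markers. A further NW B cell had 13 Igha beside 40 Ighm UMIs.

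The heavy chain level of a B cell was far below that of a plasma cell. Ighm had a median of 24 UMIs per cell in NW and 20 in ABX, or 63.9 and 58.7 per 10000 UMIs of the cell. Jchain was detected in 19.4% of B cells in NW and 23.0% in ABX, at a median depth of 4035 and 3849 UMIs. At these unequal depths the shares are no higher than the 24.2% and 23.3% of macrophage-like cells, at 5640 and 4088 UMIs. With cells thinned to an equal number of UMIs, Jchain was found in 5.88% of NW B cells against 5.28% of NW macrophage-like cells. In ABX the shares after thinning were 6.57% and 6.84%. The order thus differed between the libraries, and the shares of B cells are not read as expression. The source of these UMIs was not tested. The highest B cell-like barcode, in NW, had 404 Jchain, 2025 Ighm and 3431 Igkc UMIs with 10 of 12 plasma cell markers and 5 of 11 B cell markers. It alone held 404 of the 717 Jchain UMIs of the NW B cells.

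Ighd, the mark of mature naive B cells, was the sole member centred on B cells. B cell-like cells held 59.3% of its UMIs in NW and 78.5% in ABX, and plasma cell-like cells 0.405% and 1.03%. It was counted in 78.8% and 78.0% of B cells, against 8.24% and 6.70% of macrophage-like cells, with a median of 3 UMIs in both libraries. For each 100 Ighm UMIs there were 10.7 Ighd UMIs in NW B cells and 13.5 in ABX B cells, but 0.00429 and 0.0161 in plasma cells. Cells led by Ighd were shallower, with a median of 2376.5 UMIs in NW and 2371 in ABX, than those led by Ighm, with 4335 and 4203.

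B cells without an Ighd UMI, 73 in NW and 206 in ABX, had more B-1 cell genes and fewer genes of follicular B cells, although they were deeper (medians of 6920 and 6142 UMIs against 3319.5 and 3235). Zbtb32, a transcription factor of B-1 cells, stood at 0.910 per 10000 (0.677 to 1.20) in NW and 0.895 (0.738 to 1.08) in ABX without Ighd, against 0.466 (0.351 to 0.606) and 0.434 (0.362 to 0.515) with it. Bhlhe41, which B-1 cells need, stood at 1.30 (1.02 to 1.64) and 1.77 (1.55 to 2.02) against 0.889 (0.727 to 1.08) and 0.774 (0.678 to 0.880). In the other direction, Fcer2a (CD23, of follicular B cells) stood at 0.107 (0.0393 to 0.233) and 0.377 (0.278 to 0.4997) without Ighd and at 2.56 (2.28 to 2.86) and 2.58 (2.40 to 2.76) with it. Cr2 (CD21) followed, at 0.232 (0.123 to 0.397) and 0.581 (0.456 to 0.729) against 2.12 (1.87 to 2.40) and 2.65 (2.47 to 2.84).

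A small cluster without a name had 52 cells in NW and 29 in ABX, and its leading genes were Vpreb3, Vpreb1, Igll1, Myb and Rag1. Vpreb1 and Igll1 belong to the surrogate light chain with which early B cells display their first heavy chain, and Rag1 cuts DNA for the assembly of variable regions. Ighm led in all 52 and all 29 of these cells, with a median of 25 UMIs in both libraries and a highest count of 1150 and 752, while 22 and 18 cells had both Ighm and Ighd. Igha had 6 UMIs there in NW and 0 in ABX, where 3 UMIs would be 0.136 per 10000. Jchain had 13 UMIs in NW, at most 2 in a cell, and 68 in ABX, of which 1 cell held 52.

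**Figure D3:**
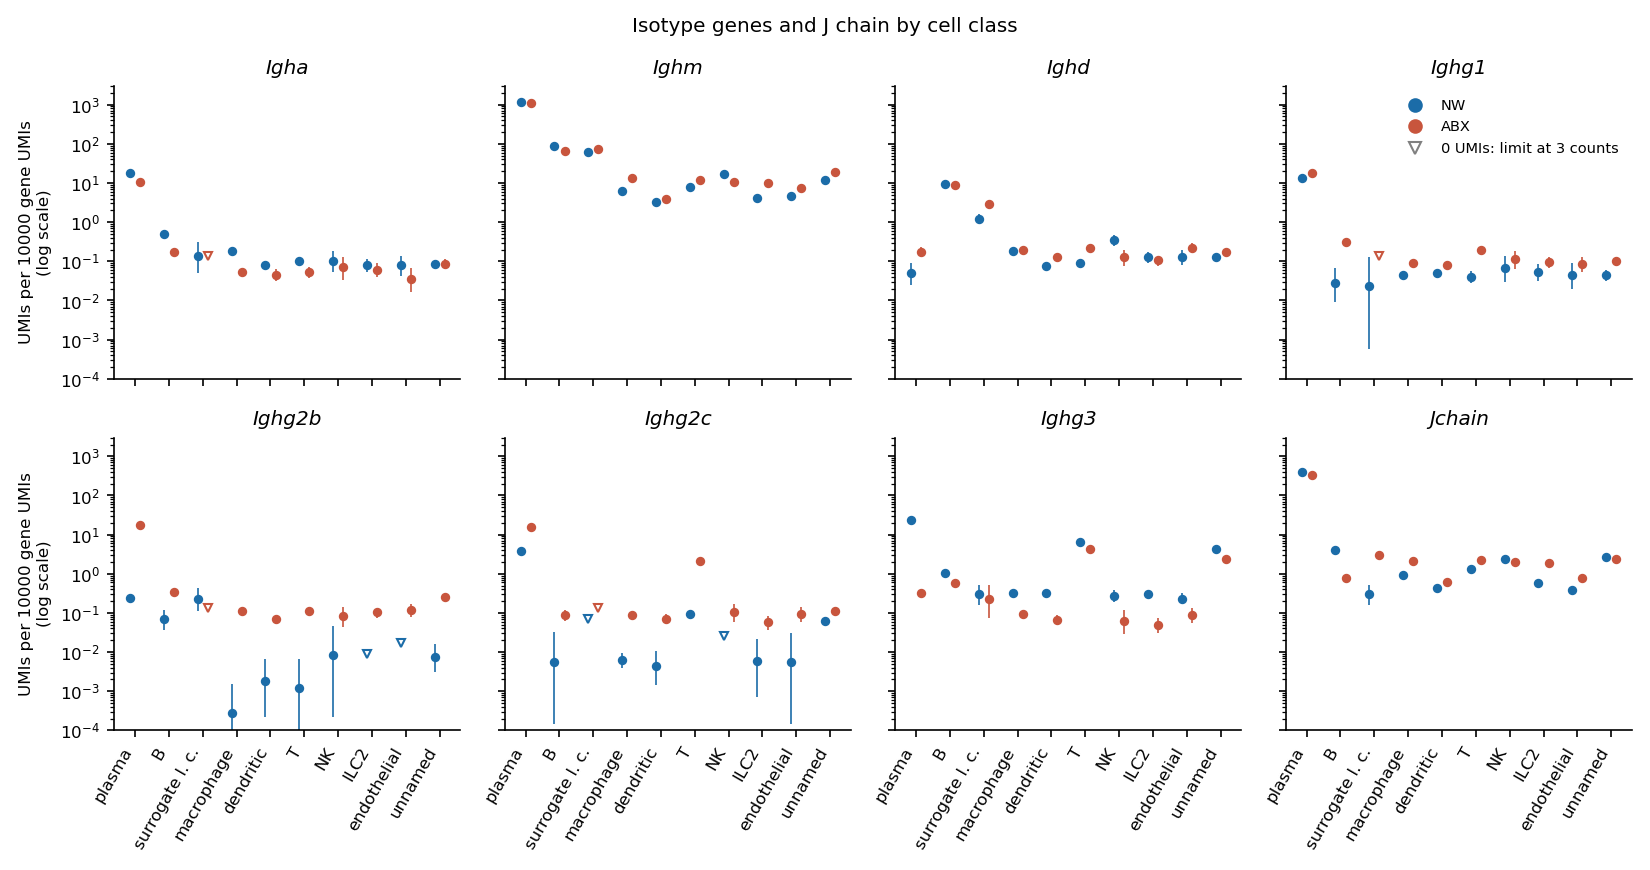
UMIs per 10000 gene UMIs (log scale) of each member by cell class and library, without the small neutrophil-like and fibroblast-like classes, with exact 95% counting intervals. Open triangles mark classes with 0 UMIs at the level of 3 counts. Ighd peaks in B cell-like cells, and Igha, the IgG genes, Ighm and Jchain peak in plasma cell-like cells, save for Ighg2b in NW and Ighg3 in ABX. Ighg2b in NW stood at 0.236 per 10000 in plasma cell-like cells and 0.233 in the surrogate light chain cluster. Ighg3 in ABX was highest in T cell-like cells at 4.29, where 3461 of its 3538 UMIs lay in a barcode with 9 plasma cell markers.

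Outside the B lineage the members formed a low, broad background. Over the 11894 NW and 11463 ABX cells that lay in neither the plasma, the B nor the surrogate light chain cluster and had fewer than 100 heavy chain UMIs, Ighm was counted in 79.4% (78.7% to 80.1%) and 77.7% (76.9% to 78.5%) of cells, with a mean of 2.56 and 2.38 UMIs per cell, and Jchain in 22.5% (21.8% to 23.3%) and 23.4% (22.6% to 24.2%). The shares with Igha were 4.88% (4.50% to 5.28%) in NW and 2.29% (2.03% to 2.59%) in ABX. UMIs of this kind in cells that do not make antibodies are usually called free RNA, from cells broken during preparation, and their source was not tested here.

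For all 8 members, the library with more UMIs in its B lineage and in barcodes of at least 100 heavy chain UMIs also had the higher background per 10000. In NW, where 3 barcodes with at least 100 heavy chain UMIs were led by Ighg3, its background was 0.321 per 10000 (0.308 to 0.335), and in ABX, with 2 of them, 0.0685 (0.0616 to 0.0760). Ighg2b, with 2 such cells in ABX and 0 in NW, had a background of 0.106 (0.0970 to 0.115) in ABX and 0.00128 (0.000584 to 0.00242) in NW. For each 100 UMIs inside the B lineage and the other barcodes of at least 100 heavy chain UMIs, the remaining cells held 10.4 of Ighm, 17.8 of Igha, 11.2 of Ighg1, 11.8 of Ighg2b, 3.95 of Ighg2c and 16.1 of Ighg3 in NW, and 7.14, 9.19, 10.3, 10.3, 6.73 and 6.90 in ABX. For Jchain the value was 3.67 and 3.26, below that of Ighm in both libraries, and for Ighd it was 61.4 and 22.8.

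**Figure D4:**
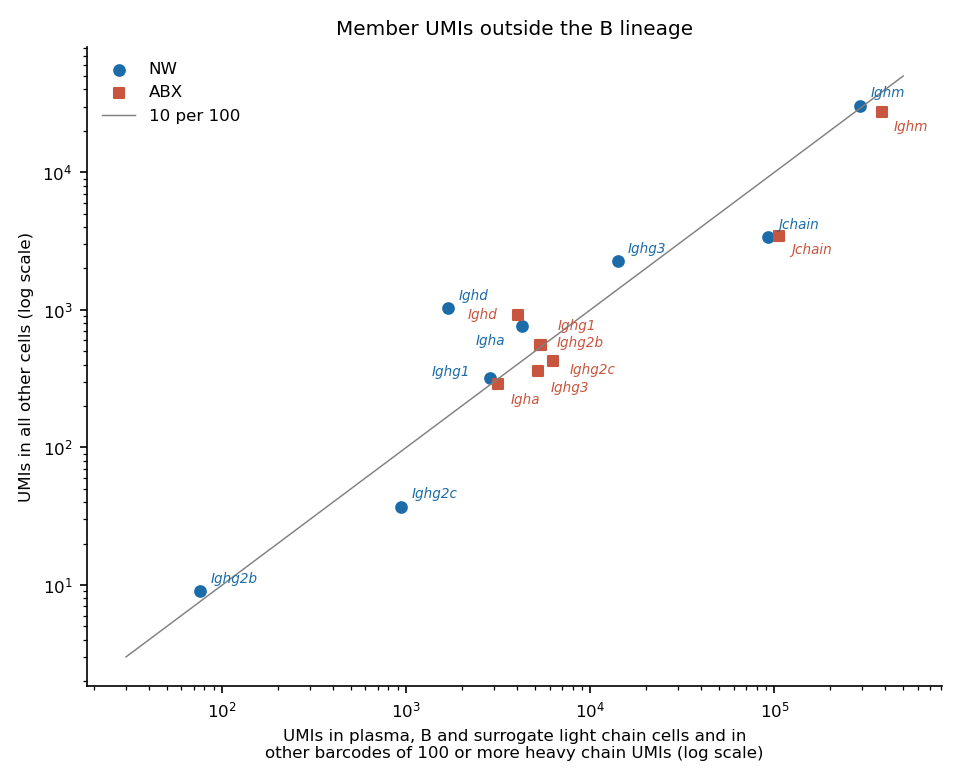
UMIs of each member in cells outside the B lineage (y axis, log scale) against those in plasma cell-like, B cell-like and surrogate light chain cluster cells and other barcodes of at least 100 heavy chain UMIs (x axis, log scale), with a line at 10 per 100. Ighg1 and Ighg2b lie near the line in both libraries, Jchain and Ighg2c lie below it and Ighd above it. Igha and Ighg3 lie above it in NW, at 17.8 and 16.1 per 100, and below it in ABX, at 9.19 and 6.90. Ighm lies at 10.4 in NW and 7.14 in ABX.

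In macrophage-like cells, the most frequent class with 5825 NW and 5045 ABX cells, Igha stood at 0.179 per 10000 UMIs (0.165 to 0.193) in NW and 0.0547 (0.0456 to 0.0652) in ABX. The NW value included 4 barcodes with 179, 64, 49 and 21 Igha UMIs, and without cells of at least 10 Igha UMIs it was 0.0915 (0.0818 to 0.102). T, NK and ILC2-like cells of NW had 0.0969 (0.0805 to 0.116). The first 3 of the 4 barcodes also had 89, 42 and 17 Jchain UMIs and 169, 88 and 43 lambda UMIs, but 8, 6 and 10 of Igkc, 1, 4 and 6 of Ighm and 3, 2 and 4 of the 12 plasma cell markers. The Igha plasma cells of NW were kappa cells, with 44 and 35 lambda UMIs. The NW B cell-like cell with 37 Igha UMIs, in contrast, had 63 lambda and 6 Igkc UMIs.

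Barcodes outside the B lineage with at least 100 heavy chain UMIs numbered 22 in NW, 0.185% (0.116% to 0.279%), and 42 in ABX, 0.365% (0.263% to 0.493%). They had a median of 16389 and 19662.5 UMIs, against 5045.5 and 3757 in the other cells outside the B lineage, and a median of 8.5 and 10 plasma cell markers against 2 and 1, and 11 and 19 of them were among the highest Scrublet scores. They held 43.5% and 58.0% of all heavy chain UMIs outside the B lineage. Ighm led in 19 and 39 of them. Of the others, 2 NW barcodes had 4982 and 3670 Ighg3 UMIs with a lambda light chain, as did the Ighg3 cell of the plasma cluster, and 2 ABX barcodes had 3461 and 1308 Ighg3 UMIs with kappa. An ABX barcode had 1709 Ighg2c UMIs, and 1 NW barcode, named above, 179 of Igha. Most Ighg3 UMIs lay in these barcodes, 53.2% in NW and 87.4% in ABX.

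Of 84 Ighe UMIs in the ABX cells, 75 lay in 1 barcode of a T cell-like cluster, which also had 928 Igkc and 4 Jchain UMIs, 5 plasma cell markers and 0 B cell markers. In NW Ighe was not counted.

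The comparison of NW with ABX asks whether antibodies of VAT changed when gut microbes were depleted. Summed UMIs were taken per 10000 gene UMIs of the same cells. A ratio of at least 1.5-fold either way was counted, over genes whose UMIs in the 2 libraries came to at least 50. In plasma cell-like cells, 3 of 8 members were higher in ABX by that measure, where 6.83% of 7192 genes were, and 2 were lower, where 3.99% of genes were. The median log2 ratio was 0.15 for the members and 0.05 for all genes.

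The members that most plasma cells express differed little. Ighm stood at 1188 per 10000 in NW and 1075 in ABX, a log2 ratio of -0.14 (-0.15 to -0.14), and Jchain at 402 and 336, a log2 ratio of -0.26 (-0.27 to -0.24). Igkc, the kappa light chain, had a log2 ratio of -0.02 (-0.03 to -0.02).

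The members that few plasma cells express differed most, and the counts of cells led by them are given beside each. Ighg2b had 51 UMIs in NW and 5129 in ABX, a log2 ratio of 6.21 (5.81 to 6.63), with 0 and 2 cells led by it. Ighg3 had 5176 and 96 UMIs, a log2 ratio of -6.20 (-6.50 to -5.91), with 1 and 0 cells, and it stood at -2.35 with clusters on mRNA only and at -2.04 with a gate on marker genes. Ighg2c had 810 and 4504 UMIs, a log2 ratio of 2.03 (1.92 to 2.14), with 1 and 3 cells. The NW cell, with 743 of the 810 UMIs, was among the highest Scrublet scores, and the ratio was 5.66 without such barcodes and 4.45 with the marker gate. Igha had 3962 and 3086 UMIs, a log2 ratio of -0.81 (-0.87 to -0.74), or 1.75-fold higher in NW, with 2 cells against 1. Ighg1 had 2848 and 5258 UMIs, a log2 ratio of 0.44 (0.37 to 0.51), with 1 and 2 cells, and Ighd 11 and 51 UMIs, a log2 ratio of 1.77 (0.81 to 2.86), with 0 cells in both libraries. Ighd stood at 0.0509 per 10000 in NW and 0.173 in ABX plasma cell-like cells, against 0.147 and 0.175 outside the B lineage. An ABX cell held 14 of its 51 UMIs. With free RNA taken off, 7 members could be compared, 2 of them higher in ABX, and Ighd was not among the 7. Without the 5 cells with the most UMIs of the member in each library, 4 members kept at least 50 UMIs, of which 1, Ighg3, was still past 1.5-fold, at -2.10, and Igha stood at -0.23. The values of Ighd, Ighg1, Ighg2b and Ighg2c in that setting were 1.81, 2.79, 2.82 and 3.496 on fewer than 50 UMIs.

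In B cell-like cells, 7 members had at least 50 UMIs. Of these, 2 were higher in ABX by at least 1.5-fold, where 2.98% of 8585 genes were, and 3 were lower, where 6.41% of genes were. Igha had 88 UMIs in NW and 73 in ABX, 0.505 and 0.171 per 10000, a log2 ratio of -1.56 (-2.03 to -1.1). Ighg3 had 1.03 and 0.569 per 10000, a log2 ratio of -0.85 (-1.14 to -0.57), and Jchain 4.12 and 0.759, a log2 ratio of -2.44 (-2.63 to -2.25). The higher members were Ighg1, with 5 and 130 UMIs and a log2 ratio of 3.41 (2.15 to 5.05), and Ighg2b, with 12 and 145 UMIs and 2.30 (1.45 to 3.29). Ighg2c had 1 and 37 UMIs, too few to be counted, with a log2 ratio of 3.92 (1.35 to 9.26). Without the top 5 cells of each library the log2 ratio of Igha was -0.30 and that of Ighg3 -0.41, both within 1.5-fold, and that of Jchain turned to 0.35. Ighm had a log2 ratio of -0.36 (-0.39 to -0.34) with all cells, of -0.03 without its top 5 cells, of -0.03 with the marker gate and of -0.13 with clusters on mRNA only. Ighd, at 9.25 and 9.09 per 10000, had a log2 ratio of -0.03 (-0.11 to 0.06).

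Over all cells, 5 of 8 members were higher in ABX by at least 1.5-fold, where 13.3% of 14505 genes were, and 1 was lower, where 2.54% of genes were. Ighm stood at 42.9 per 10000 in NW and 67.4 in ABX, a log2 ratio of 0.65 (0.64 to 0.66), Ighd at 0.361 and 0.813, a log2 ratio of 1.17 (1.104 to 1.24), and Jchain at 12.7 and 18.0, a log2 ratio of 0.50 (0.49 to 0.52). Plasma and B cell-like cells were also a larger share of the ABX library, as given above, so that the level of a gene per cell and the number of cells cannot be told apart in these sums. Igha stood at 0.665 and 0.569 per 10000, a log2 ratio of -0.22 (-0.29 to -0.16). Without the 5 cells with the most Igha UMIs in each library its log2 ratio was -0.81, past 1.5-fold, and 2 members were then lower, while the share of cells with an Igha UMI had a log2 ratio of -0.96. Those 5 cells held 84.6% of Igha UMIs in NW and 89.7% in ABX. The value without them thus rests largely on the background outside the B lineage, which held 757 and 291 Igha UMIs. Ighg1 (1.21), Ighg2c (3.09) and Ighg2b (6.43) were higher in ABX and Ighg3 (-1.25) was lower. Without the highest Scrublet scores Ighg2c stood at 4.86 and Ighg3 at -4.22.

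**Figure D5:**
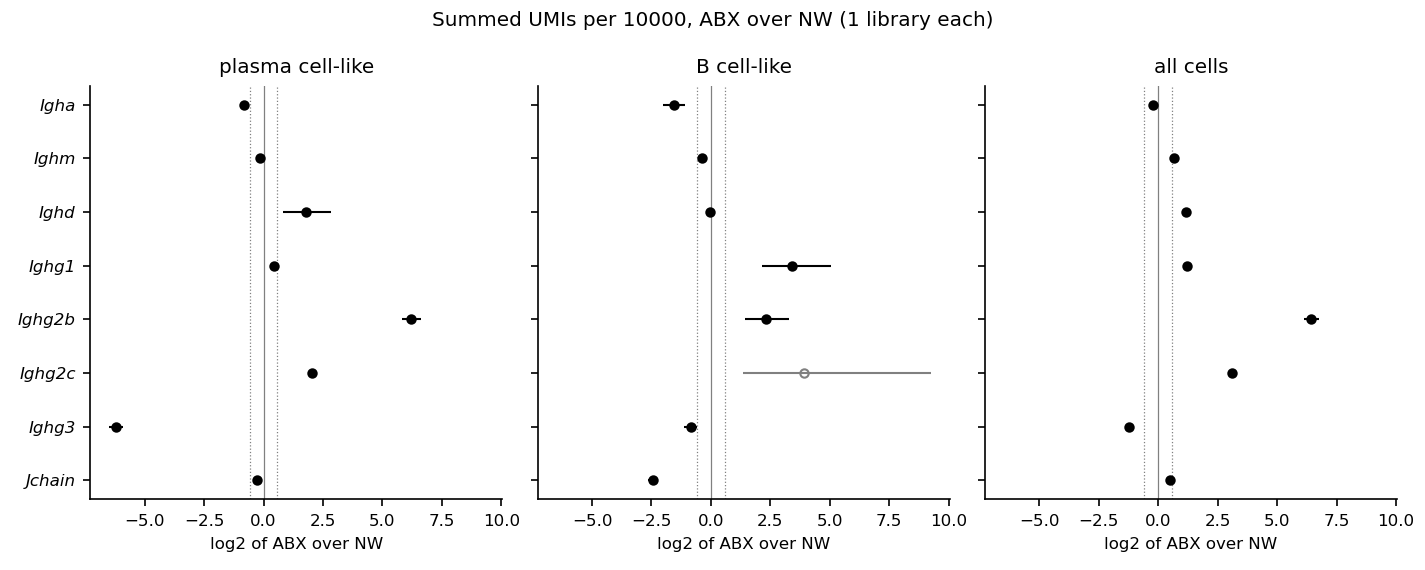
Log2 ratio of summed UMIs per 10000 in ABX over NW for each member in plasma cell-like, B cell-like and all cells, with exact 95% counting intervals and dotted lines at 1.5-fold. The open circle marks a member with fewer than 50 UMIs. Ighm and Jchain lie near 0 in plasma cell-like cells, and the IgG genes lie up to 6.21 above and 6.20 below.

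The genes around the isotypes were read from fixed lists, whose counts stand beside the shares of all genes past 1.5-fold given above for plasma, B and all cells. Of 14 genes of the class switching machinery, 12 had at least 50 UMIs in B cell-like cells, 1 higher in ABX by 1.5-fold (Xrcc5, of DNA end joining, 0.69) and 1 lower (Lig4, the ligase of that pathway, -0.71), with a median log2 ratio of 0.09. Among the genes of that list with the most UMIs over all cells were Rif1, Trp53bp1 and Apex1, which guard or repair damaged DNA, and their log2 ratios in B cells were 0.24 (-0.01 to 0.50), -0.04 (-0.50 to 0.43) and 0.26 (-0.24 to 0.78). In plasma cells 5 of the 14 had at least 50 UMIs, and 0 of them passed 1.5-fold.

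Of 12 signals for switching and plasma cell survival, 11 had at least 50 UMIs over all cells, 1 higher and 4 lower in ABX, where 13.3% and 2.54% of all genes were. Those with the most UMIs lay in other classes. Cxcl12, which retains plasma cells, was highest in endothelial cell-like cells at 5.64 per 10000, Tgfb1, the signal for switching to IgA, in ILC2-like cells at 0.622, and the retinoic acid enzymes Aldh1a2 and Aldh1a1 in dendritic cell-like cells at 1.37 and in fibroblast-like cells at 7.30. In plasma cells 2 of the 12 could be compared, and Il10, an anti-inflammatory cytokine, was higher in ABX with 23 and 82 UMIs, a log2 ratio of 1.39 (0.71 to 2.12). The share of plasma cells with an Il10 UMI was 9.94% and 10.98%, and over all cells Il10 was lower in ABX, at -0.79 (-1.01 to -0.56). Of 11 receptors for such signals, 0 of the 9 with at least 50 UMIs in plasma cells passed 1.5-fold. Tnfrsf13b (TACI) stood at 1.64 per 10000 in NW and 1.77 in ABX plasma cells, Il6ra at 0.592 and 0.863, Tgfbr2 at 0.588 and 0.720 and Il4ra at 0.106 and 0.146. In B cells 1 of 10 passed, Tnfrsf13c (the BAFF receptor), at 2.22 and 3.66 per 10000, a log2 ratio of 0.72 (0.56 to 0.89).

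Of 12 homing genes, 10 could be compared in plasma cells. Cxcr4, which holds plasma cells in bone marrow, had a log2 ratio of 0.34 (0.18 to 0.50) between ABX and NW plasma cells, the integrin chains Itga4 and Itgb1 had 0.21 (0.04 to 0.38) and 0.12 (-0.10 to 0.35), and Selplg, a selectin ligand, had -0.07 (-0.28 to 0.15). In B cells 1 of 11 was higher and 2 were lower. Of 12 receptors for antibodies, 4 of the 11 with at least 50 UMIs over all cells were higher in ABX and 0 lower, where 13.3% and 2.54% of all genes were. These 4, Pigr, Fcmr, Fcer2a and Fcrl5, were all highest in B cell-like cells, a larger share of the ABX library, and in B cells 0 of 9 were higher and 2 lower. The receptors with the most UMIs lay on other cells, as Fcgr2b at 15.3, Fcgrt at 11.99 and Fcgr3 at 10.1 per 10000 in macrophage-like cells and Fcer1g at 18.4 in NK cell-like cells. Pigr, the receptor that carries polymeric IgA and IgM, stood at 0.201 per 10000 in B cell-like cells. In plasma cells 1 of 5 was higher in ABX, Fcmr, a receptor for IgM, with 18 and 94 UMIs and a log2 ratio of 1.94 (1.20 to 2.75).

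Of 11 genes of B-1 and B-2 cells, 0 passed 1.5-fold in B cell-like cells, with Itgam at -0.41 (-0.72 to -0.10), Spn at 0.38 (0.01 to 0.77) and Cd9 at -0.08 (-0.42 to 0.26). In plasma cells 6 could be compared, and Itgam, an integrin chain listed for B-1 cells, was lower at -0.84 (-1.39 to -0.29). Over all cells Itgam was lower too, at -0.76 (-0.80 to -0.72). It stood at 2.69 per 10000 in macrophage-like cells and 0.231 in plasma cell-like cells, and the source of its UMIs in the latter was not tested. The memory genes Cd38, Cd80 and Pdcd1lg2 stood at 0.22 (0.05 to 0.38), -0.39 (-0.92 to 0.15) and 0.02 (-0.49 to 0.55) in B cells, and the fourth, Nt5e, had fewer than 50 UMIs. In plasma cells Cd38 alone could be compared, and it was higher at 0.75 (0.33 to 1.19). Of 6 genes listed under the surrogate light chain and recombination, 5 were lower in ABX over all cells. The sixth, Vpreb3, was counted in 24.1% of B cell-like cells. The cluster led by genes of this list held 0.417% of NW and 0.228% of ABX cells. Mki67 and Top2a, genes of dividing cells, were higher in plasma cells in ABX by 1.5-fold, at 1.15 (0.76 to 1.55) and 0.59 (-0.23 to 1.47), the latter with an interval that includes 0, while in B cells Top2a was lower at -1.09 (-1.61 to -0.56). Among Ighm plasma cells, Mki67 was detected in 19.5% (13.5% to 26.6%) in NW and 26.5% (21.1% to 32.5%) in ABX.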

How the data were processed

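Both libraries were deposited as tables of whole-number UMI counts per cell barcode, made by the authors with the BD Rhapsody pipeline (version 1.8 per the file headers) on GRCm38. The submitters' processing notes name mm10, R 3.6.0 and Seurat 3.0.1. The counts carry no normalization, and a gene listed for 1 library only was taken as 0 in the other. Depth was 79855126 UMIs in NW and 64801767 in ABX over all barcodes.

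Cells were filtered as in the methods. In Seurat 5.3.0 (R 4.3.3), 2000 variable genes without the 305 immunoglobulin genes, with the UMI count regressed out, gave 30 principal components, which were combined with the 8 antibodies of the methods (the tables hold 10) by weighted nearest neighbours and clustered at resolution 0.6. A cluster was named "-like" from 14 marker lists, where at least 3 markers passed 1.5-fold over other cells with a UMI in at least 10% of cells. Shares carry Clopper-Pearson intervals, levels exact Poisson intervals and ratios exact intervals of a ratio of Poisson rates, in SciPy 1.17.1, and the floor for 0 UMIs is 3 counts. Doublets were kept, because the automatic threshold of Scrublet (scanpy 1.11.5) marked 365 NW but only 3 ABX cells. The ratio and isotype steps were tested on simulated data.

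Named were all 8 members, the other constant genes, for each fixed list the 4 genes with the most UMIs, the 10 genes most like Igha, and the 5 highest and 5 lowest in Igha against other plasma cells. Other genes were named after their values were seen. The members and lists were chosen with earlier results of these data known. Alternatives covered other clusterings, a gate on markers, other minimum counts, doublet scores, mitochondrial content, scaling, free RNA and depth. Values of some genes on the fixed lists are not reported here.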

Additional observations from a re-analysis of the deposited data

Results flagged for a closer look

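The barcodes that the filters removed, 5188 in NW and 5061 in ABX, enter no comparison above, and they too held the members above the level of 3 counts. Ighm stood at 4.67 per 10000 UMIs in NW and 7.15 in ABX, and Igha at 0.170 (0.135 to 0.212) in NW and 0.0670 (0.0441 to 0.0975) in ABX. Igha was found in 1.25% and 0.494% of these barcodes, at a median of 599.5 and 515 UMIs, and its order between the libraries was the same as in macrophage-like cells.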

How the results depend on the processing

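The shares of Ighm, Igha and IgG plasma cells and of switched B cells stayed within their intervals under every alternative tried. Without the 5 cells with the most UMIs of a member in each library, the members past 1.5-fold numbered 1 in plasma and 1 in B cell-like cells, against 5 in each with all cells, and fewer members kept 50 UMIs. The Jchain log2 ratio in B cell-like cells reversed to 0.35 in that setting, which leaves out the NW barcode of 404 Jchain UMIs, and to 0.0469 when clusters rested on mRNA only, where the cause was not tested. NW Igha in macrophage-like cells moved to 0.0915 per 10000 without cells of 10 or more Igha UMIs and was 0.0969 in T, NK and ILC2-like cells. With immunoglobulin genes left out of the total, which shrinks it, Jchain per 10000 in Ighm, Igha and IgG plasma cells was 715, 1204 and 801 in NW and 572, 2221 and 463 in ABX. Of the values of single members, 114 stayed within counting error (for shares after thinning, within 0.5 on the log2 scale), 58 moved further and 2 reversed. No paired analysis was possible because each group has 1 library. Depth limits the rare isotypes: 3 cells are 1.86% of NW and 1.18% of ABX plasma cells, and the spread between mice is unknown.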
